A study of Homo sapiens with 15 samples.

Results

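Long non-coding RNAs were followed in the 3 cell fractions, starting with SWINGN, the one with the steepest rise in the CD90+ cells. The set held 10 genes (SWINGN, HAGLR, HOTAIR, MALAT1, NEAT1, PVT1, CRNDE, UCA1, GAS5 and DANCR), and every probe set annotated to 1 of them alone was used. That gave 23 of 54613 probe sets, for 9 of the 10 genes. MALAT1 had 12, HAGLR 3, CRNDE 2, and SWINGN, HOTAIR, PVT1, UCA1, GAS5 and DANCR 1 each, while NEAT1 had none of its own. SWINGN was selected on its measured rise in these arrays, so its values are given as a description with no test, and the other 22 probe sets (8 genes) were tested. A further 17 probe sets were listed with a gene of the set and other genes together. They are described apart and were not counted.

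The cells came from PEO1, a human cell line of ovarian cancer that the study used to look for stem-like cells. Living cells of the parental line, grown in serum-containing medium, were sorted by flow cytometry on the surface proteins CD90 (THY1) and CD133 (PROM1) into a CD90+/CD133+, a CD90+/CD133- and a CD90-/CD133- fraction, with no drug or gene change in any of them, and RNA of each fraction was put on whole-genome expression arrays. Each fraction had 5 arrays, numbered 1 to 5, and 15 arrays were used in all. All come from a single line, so the values describe PEO1 only.

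Long non-coding RNAs are transcripts without a long open reading frame that act as RNA, by holding proteins together, guiding chromatin complexes or binding other RNAs. MALAT1 lies in nuclear speckles and NEAT1 builds paraspeckles, while GAS5 and PVT1 also host small RNAs. SWINGN is named after the SWI/SNF chromatin remodelling complex that it binds and after GAS6, a neighbouring gene that encodes a secreted growth factor.

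The start regions of 4 genes are shown first, since these are the sequences from which the RNAs below begin. SWINGN, CRNDE and GAS5 were higher in both CD90+ fractions, and DANCR was called higher in the CD90+/CD133+ fraction only. Start regions of 6 of the 10 genes were found in the RefSeq table (GRCh38.p14), each with 250 bases before and 50 bases after a start. SWINGN (chr13:113928942-113929241, minus strand), CRNDE (chr16:54928837-54929136, minus strand), GAS5 (chr1:173868996-173869295, minus strand) and DANCR (chr4:52712144-52712443, plus strand) are printed here, without UCA1, for which no entry was found, and without MALAT1, whose probe sets gave calls in both directions, with CCAAT boxes (CCAAT or ATTGG) and GCGTG or its reverse complement CACGC in capitals.
SWINGN: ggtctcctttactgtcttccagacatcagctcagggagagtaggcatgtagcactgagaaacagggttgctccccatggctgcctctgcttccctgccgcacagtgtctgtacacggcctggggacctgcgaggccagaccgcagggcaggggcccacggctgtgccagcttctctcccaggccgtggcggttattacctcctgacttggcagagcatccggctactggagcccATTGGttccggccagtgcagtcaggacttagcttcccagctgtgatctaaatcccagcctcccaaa
CRNDE: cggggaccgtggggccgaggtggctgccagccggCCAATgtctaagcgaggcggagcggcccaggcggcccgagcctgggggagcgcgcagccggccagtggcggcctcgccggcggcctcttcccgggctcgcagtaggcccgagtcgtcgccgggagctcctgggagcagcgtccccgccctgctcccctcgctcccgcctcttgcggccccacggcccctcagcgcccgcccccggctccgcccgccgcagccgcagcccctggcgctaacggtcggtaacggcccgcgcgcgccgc
GAS5: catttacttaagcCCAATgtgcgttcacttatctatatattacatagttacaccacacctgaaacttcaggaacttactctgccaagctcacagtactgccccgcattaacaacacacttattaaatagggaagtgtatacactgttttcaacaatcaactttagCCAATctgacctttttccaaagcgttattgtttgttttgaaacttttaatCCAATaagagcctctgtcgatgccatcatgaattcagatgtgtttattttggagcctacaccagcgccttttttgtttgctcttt
DANCR: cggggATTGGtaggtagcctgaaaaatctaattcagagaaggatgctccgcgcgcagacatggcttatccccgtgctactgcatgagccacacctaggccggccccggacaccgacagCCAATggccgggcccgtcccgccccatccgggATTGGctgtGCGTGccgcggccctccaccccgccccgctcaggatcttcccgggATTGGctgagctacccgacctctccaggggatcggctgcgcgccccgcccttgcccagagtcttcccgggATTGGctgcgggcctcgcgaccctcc
SWINGN and CRNDE each held 1 CCAAT box, GAS5 held 3 and DANCR 5, against 34.6% of 35116 promoters with at least 1. The core motifs of hypoxia response elements were searched because the study is about HIF. ACGTG, which stands in 21.4% of promoters and overlaps with the E-box CACGTG, was in none of these 4 windows, and GCGTG, which stands in 36.5%, was in that of DANCR. Of the windows not printed, both of MALAT1 held GCGTG, 2 times and 1 time, and no ACGTG. Those of HAGLR held ACGTG 2, 0, 2 and 1 times and GCGTG 0, 1, 0 and 1 times, counted over both strands. The E-box CACGTG stood in them 1, 0, 1 and 0 times. It reads ACGTG on each strand, so each count of 2 is a single site. The windows differed most in CpG sites, with 9 in SWINGN, 44 in CRNDE, 5 in GAS5 and 27 in DANCR, against a median of 14. No methylation or binding was measured here, so these are descriptions of the letters.

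The sort was visible in the arrays. THY1 had a median intensity of 1435 in CD90+/CD133+ cells, 966 in CD90+/CD133- cells and 68.4 in CD90-/CD133- cells, and PROM1 834, 24.6 and 15.4 in the same order. All 8 markers of ovarian carcinoma epithelium lay over 64 on every array, and their summed intensity was 26561 to 38218 in CD90+/CD133+, 28662 to 38130 in CD90+/CD133- cells and 41882 to 51517 in CD90-/CD133- cells. The members split, with 2 of 8 higher and 4 lower in CD90+/CD133+ cells and 2 higher and 3 lower in CD90+/CD133- cells at an unadjusted p under 0.05 (limma), and EPCAM had medians of 7446 in CD90+/CD133+, 7502 in CD90+/CD133- cells and 5930 in CD90-/CD133- cells while KRT18 had 11418, 12407 and 18505. The summed intensity of 6 fibroblast markers was 232 to 292, 213 to 246 and 305 to 370 in the same order, that of 3 leukocyte markers 115 to 205, 132 to 190 and 83.9 to 108, and 2 of 4 endothelial markers were at or under 16 everywhere. The part of these shifts in the results below was not tested. In a sorted fraction, fewer cells with an RNA and less of it per cell cannot be told apart. Values are intensities normalized by the authors. Anything under 16 was raised to 16 ahead of the log2 step, so that changes of dim probe sets come out too small, and 5 arrays per fraction limit the precision.

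Of the 22 probe sets tested, 5 were higher and 4 lower in CD90+/CD133- cells than in CD90-/CD133- cells (limma with the replicate number as a block, adjusted p under 0.05 over all 54613 probe sets), beside 11.5% higher and 11.2% lower among all probe sets. Between CD90+/CD133+ and CD90-/CD133- cells, 6 were higher and 4 lower, beside 9.53% and 11.7%. Both comparisons use the same CD90-/CD133- arrays. Between CD90+/CD133+ and CD90+/CD133- cells 1 was higher and 0 lower, beside 1.1% and 1.87%, and at an unadjusted p under 0.05 these were 3 and 7 in limma. The higher ones belonged to UCA1, CRNDE, GAS5 and MALAT1 in both comparisons and to DANCR in the CD90+/CD133+ cells, and the lower ones to HAGLR and MALAT1 in both and to PVT1 in the CD90+/CD133- cells. The median log2 fold change of the 22 was 0.31, -0.05 and -0.13 in the 3 comparisons, against 0.00 for all probe sets in each. Of the 22, 12 belonged to MALAT1, with medians of 0.33, -0.23 and -0.50, so MALAT1 weighs most in these values. The 0.00 includes 14609 of the 54613 probe sets at or under 16 on all arrays, which have no change. A shift of the set cannot be read from these medians. Without the replicate block the counts were 3 higher and 3 lower, 4 and 3, and 1 and 0.

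SWINGN was bright in both CD90+ fractions and much lower, between 12.1 and 85.7, in the CD90-/CD133- cells. Its probe set (1558847_at) read 1154, 1348, 1541, 1637 and 1885 in CD90+/CD133+ cells (replicates 1 to 5). In the CD90+/CD133- fraction it read 1153, 1474, 1307, 1661 and 1519, and in the CD90-/CD133- fraction 18.3, 12.1, 85.7, 85.1 and 35.7. Every CD90+ array lay far above every CD90-/CD133- array, and within the CD90-/CD133- fraction replicates 3 and 4 were higher than replicates 1 and 2, of which replicate 2 was under 16. On the log2 scale the means were 10.54 ± 0.27 in CD90+/CD133+, 10.46 ± 0.20 in CD90+/CD133- cells and 5.24 ± 1.16 in CD90-/CD133- cells (SD, n = 5 each). The log2 fold change was 5.31 in CD90+/CD133+ over CD90-/CD133- cells (39.6-fold) and 5.23 in CD90+/CD133- over CD90-/CD133- cells (37.4-fold), and both folds are too small by an unknown amount, since 1 CD90-/CD133- array was at the floor. CD90+/CD133+ and CD90+/CD133- cells overlapped, with a difference of 0.08 on the log2 scale that was positive in 3 of 5 pairs.

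**Figure D1:**
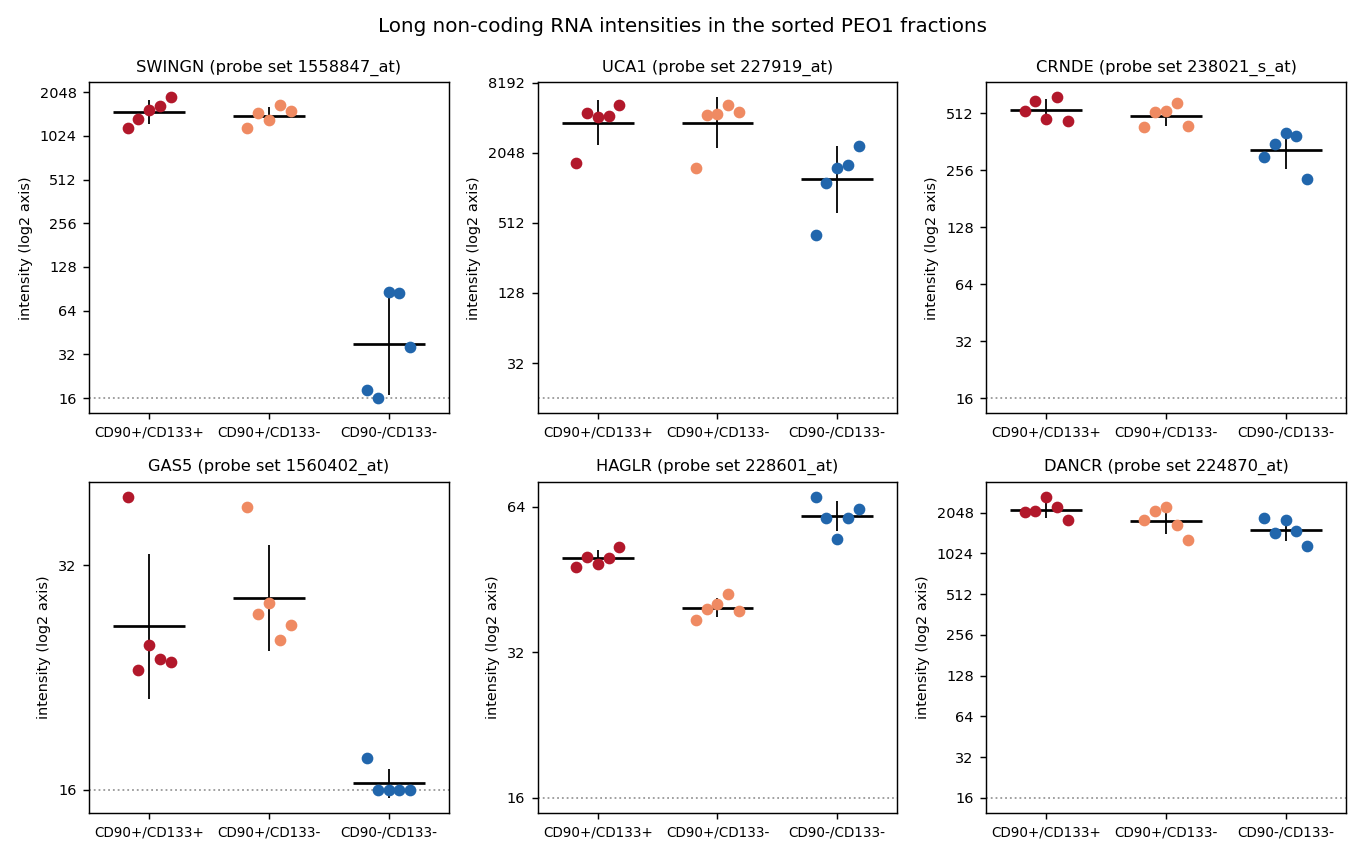
Intensity (log2 axis) of 6 long non-coding RNA probe sets in the CD90+/CD133+, the CD90+/CD133- and the CD90-/CD133- fraction; each point is an array, placed left to right by replicate number, with values under 16 drawn at 16 (dotted line), and black lines give the mean of log2 values and its SD (n = 5). SWINGN lies at 1153 or higher on all CD90+ arrays and at 85.7 or lower on all CD90-/CD133- arrays, while HAGLR is highest in CD90-/CD133- cells.

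GAS6, which lies 5 genes from SWINGN on chromosome 13, was higher in both CD90+ fractions as well. Its probe set 1598_g_at read 1376, 1619, 2011, 1835 and 2802 in CD90+/CD133+ cells, 1414, 1477, 1742, 1644 and 1937 in CD90+/CD133- cells, and 388, 312, 449, 429 and 716 in CD90-/CD133- cells. The fractions with CD90 did not overlap with the fraction without it. GAS6 rose by 2.09 (SE 0.10, adjusted p = 7.17e-06, limma) in CD90+/CD133+ cells and by 1.89 (SE 0.10, adjusted p = 1.15e-05) in CD90+/CD133- cells on the log2 scale, and its second probe set rose too (2.55 and 2.30).

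The other called genes around SWINGN were lower. Of 14 measured genes of the neighbourhood, 1 (GAS6) was higher and 9 were lower in CD90+/CD133- cells than in CD90-/CD133- cells, beside 14% and 16.2% of all genes, with a median log2 fold change of -0.63. In CD90+/CD133+ cells it was again 1 and 9, beside 13.1% and 15.8% of all genes, with a median of -0.77. RASA3, a Ras GTPase-activating protein and the next gene on the other side of SWINGN, averaged 49.2 in CD90+/CD133+, 40.0 in CD90+/CD133- cells and 124 in CD90-/CD133- cells. It fell by 1.34 (adjusted p = 0.000507) and by 1.64 (adjusted p = 0.000173, limma) on the log2 scale against CD90-/CD133- cells, in 1 of its 3 probe sets. PCID2 (an mRNA export factor), DCUN1D2 (a cullin neddylation factor) and CDC16 (a subunit of the anaphase-promoting complex) fell by 1.33, by 0.98 and by 0.84 in CD90+/CD133- cells, and TFDP1, the partner of E2F factors, fell there in all 3 of its probe sets (-1.01 to -0.60).

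**Figure D2:**
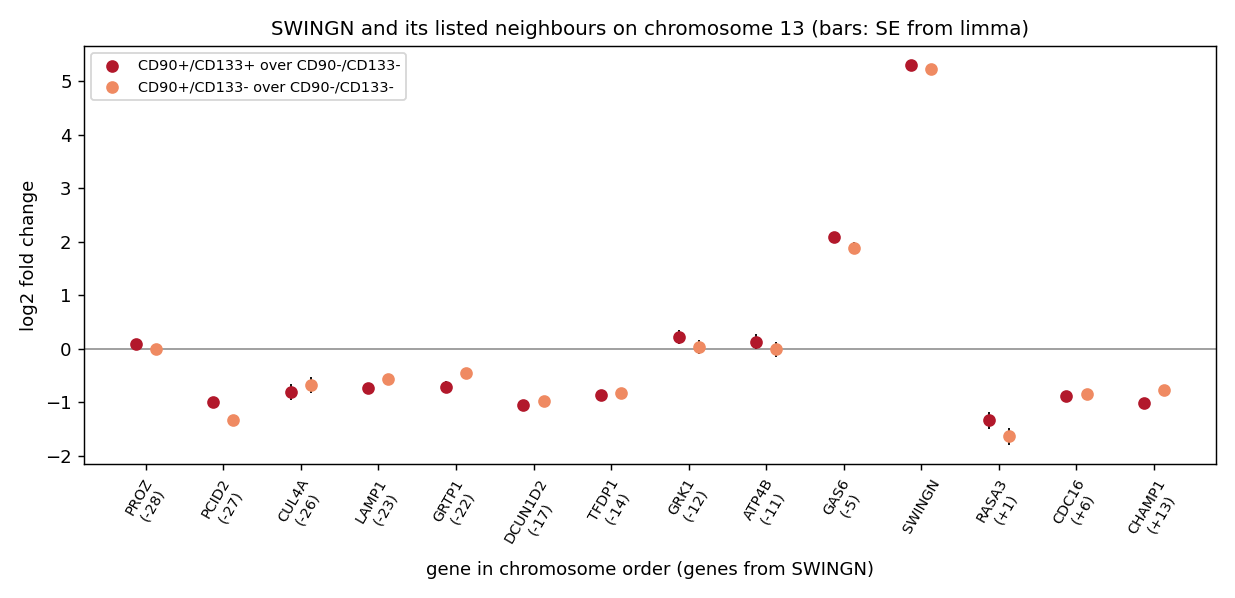
Log2 fold change (vertical axis) of SWINGN and the 13 listed neighbours measured above 16 on any array, in chromosome order with the distance in genes from SWINGN, for CD90+/CD133+ over CD90-/CD133- and CD90+/CD133- over CD90-/CD133- cells; bars are SE from limma, and SWINGN, selected on this rise, has none. SWINGN (5.31 and 5.23) and GAS6 (2.09 and 1.89) are the 2 genes well above 0, and RASA3 beside them is below 0.

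Of 20 subunits of SWI/SNF, the complex in SWINGN's name, 6 were higher and 3 lower in CD90+/CD133- cells than in CD90-/CD133- cells (all genes 14% and 16.2%), and 4 were higher and 4 lower in CD90+/CD133+ cells (all genes 13.1% and 15.8%), so the lower ones were near the share of all genes. BCL7A rose by 1.23 (adjusted p = 0.000183), the accessory subunit ACTL6A by 0.58 (adjusted p = 0.0279) and the ATPase SMARCA4 by 0.37 (adjusted p = 0.00362), and BRD7 fell by 0.60 (adjusted p = 0.000307), in CD90+/CD133- cells. Between the CD90+ fractions 0 passed the test in limma, and 3 were higher and 6 lower in CD90+/CD133+ cells at an unadjusted p under 0.05.

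UCA1, a transcript first described in bladder cancer, was about as high in both CD90+ fractions and lower in the CD90-/CD133- cells. Its probe set (227919_at) read 1686, 4531, 4136, 4263 and 5276 in CD90+/CD133+ cells, 1531, 4332, 4409, 5259 and 4594 in CD90+/CD133- cells, and 404, 1123, 1530, 1613 and 2339 in CD90-/CD133- cells. Replicate 1 was the lowest in each fraction, so that the fractions overlapped while the CD90-/CD133- array was lower in 5 of 5 pairs. The log2 fold change was 1.62 in CD90+/CD133+ over CD90-/CD133- cells (SE 0.15, adjusted p = 0.000139, limma) and 1.62 in CD90+/CD133- over CD90-/CD133- cells (SE 0.15, adjusted p = 0.000132). Between the CD90+ fractions it was 0.00 (adjusted p = 1). Without the replicate block the adjusted p was 0.0486 and 0.0448 against CD90-/CD133- cells. Of 14 measured neighbours, most of them CYP4F fatty acid hydroxylases and olfactory receptor genes, 0 were higher (1 at an unadjusted p under 0.05, limma) and 1 (FAM32A) was lower in CD90+/CD133- cells, where its log2 fold change was -0.60. Among all genes 14% were higher and 16.2% lower there.

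**Figure D3:**
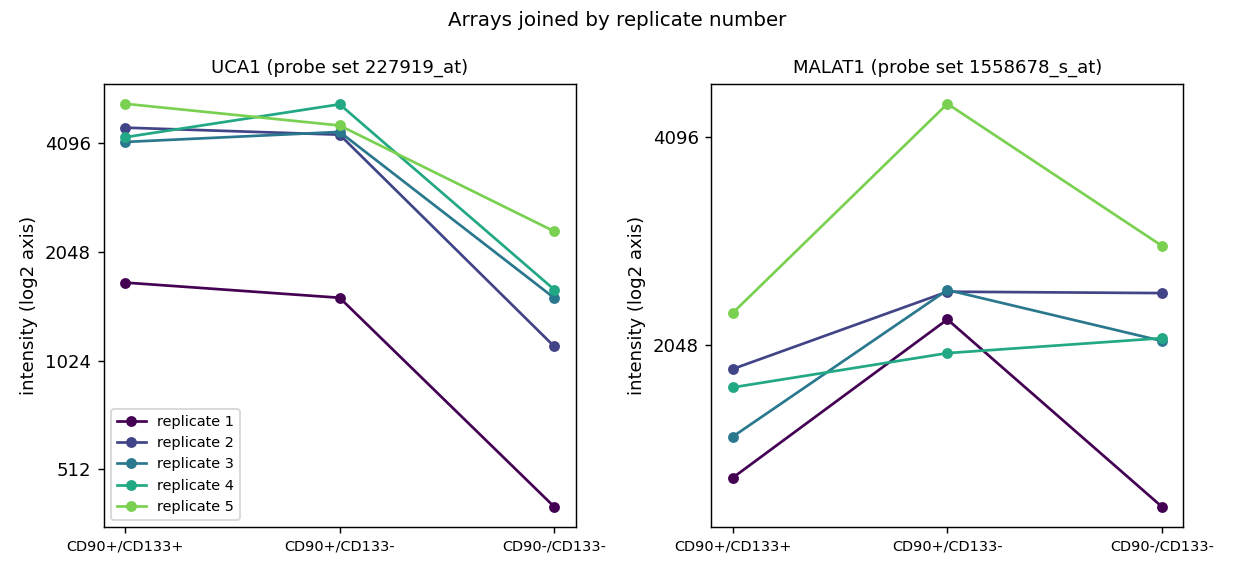
Intensity (log2 axis) of UCA1 and of MALAT1 probe set 1558678_s_at in the 3 fractions, with a line for each replicate number. UCA1 is lowest in replicate 1 in every fraction and lowest in CD90-/CD133- cells within each number, and MALAT1 replicate 5 reaches 4570 in CD90+/CD133- cells.

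CRNDE, named for its expression in colorectal neoplasia, was moderately higher in the CD90+ cells. Its brighter probe set (238021_s_at) read 528, 596, 478, 621 and 465 in CD90+/CD133+ cells, 433, 517, 529, 577 and 439 in CD90+/CD133- cells, and 300.0, 353, 401, 387 and 231 in CD90-/CD133- cells. No CD90-/CD133- array reached the lowest CD90+ array. It rose by 0.70 in CD90+/CD133+ cells (adjusted p = 0.00097) and by 0.60 in CD90+/CD133- cells (adjusted p = 0.00222, limma), with an SE of 0.10. The second probe set (238022_at) rose by 0.61 (adjusted p = 0.0074) and by 0.49 (adjusted p = 0.0203), and the call in CD90+/CD133- cells was lost without the replicate block (adjusted p = 0.108). Neither passed the test between the CD90+ fractions (0.11 and 0.12 on the log2 scale, adjusted p = 0.725 and 0.80).

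Among the 8 measured genes around CRNDE, 2 were higher and 3 lower in CD90+/CD133- cells than in CD90-/CD133- cells, beside 14% and 16.2% of all genes. IRX5, the homeobox gene next to CRNDE, averaged 87.6 in CD90+/CD133- cells and 58.1 in CD90-/CD133- cells (log2 fold change 0.59, adjusted p = 0.028) and had 0.15 in CD90+/CD133+ cells. IRX3, another homeobox gene of that cluster, averaged 2077 and 934 and rose by 1.15 (adjusted p = 7.68e-05). LPCAT2, FTO and RPGRIP1L of the same region fell by 1.27, by 1.19 and by 0.96 (adjusted p = 2.64e-05, 3.22e-05 and 6.97e-05).

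GAS5, which carries small nucleolar RNAs in its introns and builds up when growth stops, was higher in the CD90+ cells. Its own probe set (1560402_at) was dim, with 39.5, 23.2, 25.1, 24.0 and 23.8 in CD90+/CD133+ cells, 38.3, 27.5, 28.5, 25.4 and 26.6 in CD90+/CD133- cells, and 17.7, 15.9, 13.8, 14.4 and 15.7 in CD90-/CD133- cells. Every CD90+ array was above every CD90-/CD133- array, of which 4 of 5 were under 16, and replicate 1 was the highest of each fraction. The log2 fold change was 0.70 in CD90+/CD133+ cells (SE 0.08, adjusted p = 0.000503) and 0.83 in CD90+/CD133- cells (SE 0.08, adjusted p = 0.000205, limma) over CD90-/CD133- cells, both understated by the floor.

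A set of 4 brighter probe sets listed with GAS5 and 8 small nucleolar RNAs together, which name no single gene, moved the same way. All 4 were higher in both CD90+ fractions, by 1.02 to 1.25 in CD90+/CD133+ cells and by 0.92 to 1.48 in CD90+/CD133- cells on the log2 scale, and higher in 5 of 5 pairs. Among all probe sets 9.53% were called higher in CD90+/CD133+ cells and 11.5% in CD90+/CD133- cells. The probe set 224741_x_at read 4926, 4856, 5346, 4377 and 6388 in CD90+/CD133+ cells, 4326, 5171, 4579, 4389 and 11348 in CD90+/CD133- cells, and 1932, 2401, 1945, 2344 and 2773 in CD90-/CD133- cells. Replicate 5 of the CD90+/CD133- cells stood far above the rest, and the other arrays of both CD90+ fractions still lay above all CD90-/CD133- arrays.

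Of 8 measured genes around GAS5, 5 were higher and 0 lower in each CD90+ fraction against CD90-/CD133- cells (limma, the same counts at an unadjusted p under 0.05), with a median log2 fold change of 0.55 in CD90+/CD133- cells. Among all genes 14% were higher and 16.2% lower in CD90+/CD133- cells, and 13.1% and 15.8% in CD90+/CD133+ cells. RABGAP1L, a Rab GTPase-activating protein, rose by 1.37 (adjusted p = 0.00254), ZBTB37, a zinc finger gene, by 0.87 (adjusted p = 0.00128) in 1 of its 3 probe sets, CENPL, a centromere protein, by 0.82 (adjusted p = 0.00404) and RC3H1, an RNA-binding ubiquitin ligase, by 0.56 (adjusted p = 0.00072) in CD90+/CD133- cells. Of the other non-coding hosts of small nucleolar RNAs, 2 of 8 were higher and 1 was lower in CD90+/CD133- cells, beside 14% and 16.2% of all genes. SNHG19 rose by 0.42 (adjusted p = 0.00371) and SNHG18 fell by 1.17 (adjusted p = 0.00112).

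DANCR, known for holding back differentiation, was higher in the CD90+/CD133+ cells. Its probe set (224870_at) read 2064, 2101, 2670, 2245 and 1813 in CD90+/CD133+ cells, 1814, 2117, 2246, 1661 and 1278 in CD90+/CD133- cells, and 1867, 1455, 1802, 1497 and 1163 in CD90-/CD133- cells. The fractions overlapped, with replicate 5 the lowest of each. Against CD90-/CD133- cells the log2 fold change was 0.49 in CD90+/CD133+ cells (SE 0.09, adjusted p = 0.00479, limma) and 0.22 in CD90+/CD133- cells (adjusted p = 0.136). The difference between the CD90+ fractions was 0.27 (adjusted p = 0.155), so a difference between them was not shown, and the call in CD90+/CD133+ cells was lost without the replicate block (adjusted p = 0.0811). Around DANCR, 1 of 8 measured genes was higher and 3 were lower in CD90+/CD133- cells, beside 14% and 16.2% of all genes. Among the lower ones was ERVMER34-1, an endogenous retroviral envelope gene, which fell by 1.58 (adjusted p = 0.00032, limma).

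HAGLR, an antisense transcript of the HOXD cluster, went the other way, and it was the member that separated all 3 fractions. Its brightest probe set (228601_at) read 47.9, 50.4, 48.8, 50.2 and 52.9 in CD90+/CD133+ cells, 37.3, 39.2, 40.2, 42.1 and 38.9 in CD90+/CD133- cells, and 67.0, 60.6, 54.9, 60.7 and 63.4 in CD90-/CD133- cells. No 2 fractions overlapped, and the order was CD90-/CD133-, CD90+/CD133+ and CD90+/CD133- from high to low. HAGLR fell by 0.29 in CD90+/CD133+ cells (adjusted p = 0.00419) and by 0.63 in CD90+/CD133- cells (SE 0.05, adjusted p = 7.47e-05, limma) on the log2 scale. Set against CD90+/CD133- cells, it rose by 0.34 in CD90+/CD133+ cells (adjusted p = 0.0222), and this call held in 9 of 15 fits without a single array and in 1 of 5 without a replicate number. The signal was dim, and at a floor of 64 no such call was left. The probe set 242042_s_at lay between 12.9 and 23.4 and fell by 0.33 in CD90+/CD133+ cells (adjusted p = 0.0349) and by 0.34 in CD90+/CD133- cells (adjusted p = 0.0292), and 239182_at was under 16 on all 15 arrays.

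No gene around HAGLR was higher in CD90+/CD133- or CD90+/CD133+ cells than in CD90-/CD133- cells, and 5 and 4 of 11 measured genes were lower. Among all genes 14% and 13.1% were higher in these fractions, and 16.2% and 15.8% lower. Of the 11 measured genes 0 were higher, and 6 and 5 were lower, at an unadjusted p under 0.05 (limma). HOXD8, a homeobox gene, was at or under 16 on all arrays of both CD90+ fractions and averaged 32.7 in CD90-/CD133- cells, at least 2.05-fold lower in each CD90+ fraction (adjusted p = 0.0034 in CD90+/CD133+ cells and 0.00324 in CD90+/CD133- cells). MTX2, a mitochondrial import protein beside the cluster, averaged 552 in CD90+/CD133+, 436 in CD90+/CD133- cells and 815 in CD90-/CD133- cells. Its order of the 3 fractions was that of HAGLR, and it rose by 0.34 in CD90+/CD133+ over CD90+/CD133- cells (adjusted p = 0.0397). HAGLROS, the transcript opposite HAGLR, fell by 0.48 in CD90+/CD133- cells (adjusted p = 0.0453), and HOXD4 fell by 0.38 (adjusted p = 0.0195).

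HOTAIR, the antisense transcript of the HOXC cluster that binds the PRC2 and LSD1 complexes, lay between 5.0 and 9.5 on all 15 arrays, under the floor, so no fold can be given. The HOXC genes around it were measured and in part differed. HOXC10 read 164, 182, 201, 201 and 199 in CD90+/CD133+ cells, 244, 229, 262, 242 and 199 in CD90+/CD133- cells, and 26.3, 40.3, 60.7, 50.2 and 68.4 in CD90-/CD133- cells. It rose by 2.02 (adjusted p = 0.000165) and by 2.33 (adjusted p = 7.89e-05, limma) on the log2 scale, with no overlap with CD90-/CD133- cells. HOXC13 rose by 1.12 (adjusted p = 0.00127) and by 1.19 (adjusted p = 0.000929), HOXC4 fell by 0.36 in CD90+/CD133- cells (adjusted p = 0.0203), and HOXC11 had -0.17 there (adjusted p = 0.356). Of 12 measured neighbours, 2 were higher and 3 lower in CD90+/CD133- cells and 3 were higher and 0 lower in CD90+/CD133+ cells (4 and 2 at an unadjusted p under 0.05, limma). The shares of all genes were 14% and 16.2% in CD90+/CD133- cells, and 13.1% and 15.8% in CD90+/CD133+ cells.

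The partners of HOTAIR changed in both directions. Of 13 genes of the PRC2 and LSD1 complexes, 4 were higher and 4 lower in CD90+/CD133- cells, and 4 were higher and 5 lower in CD90+/CD133+ cells, against CD90-/CD133- cells. All genes were also called in both directions, 14% higher and 16.2% lower in CD90+/CD133- cells and 13.1% and 15.8% in CD90+/CD133+ cells. EZH2, the methyltransferase of PRC2, averaged 1044 in CD90+/CD133+, 887 in CD90+/CD133- cells and 489 in CD90-/CD133- cells, and rose by 1.09 (adjusted p = 3.5e-05) and by 0.86 (adjusted p = 0.000104). The repressor REST rose by 0.73 (adjusted p = 0.000754) and its corepressor RCOR1 by 0.51 (adjusted p = 0.00679) in CD90+/CD133- cells. The PRC2 accessory protein MTF2 fell by 0.58 there (adjusted p = 2.61e-05).

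MALAT1 gave no single answer over its 12 probe sets, of which 7 carry the suffix _x_at that marks possible cross-hybridization. In CD90+/CD133- over CD90-/CD133- cells 1 was called higher (224558_s_at, 0.40, adjusted p = 0.0489) and 1 lower (224559_at, -0.62, adjusted p = 0.00366), and in CD90+/CD133+ over CD90-/CD133- cells 1 was higher (224558_s_at, 0.42, adjusted p = 0.0407) and 2 were lower (224559_at, -0.94, adjusted p = 0.000419, and 228582_x_at, -0.65, adjusted p = 0.0497, limma). Without the replicate block, 224558_s_at had an adjusted p of 0.706 and 0.695, 224559_at of 0.0556 in CD90+/CD133- cells, and 228582_x_at of 0.0676. In CD90+/CD133- over CD90-/CD133- cells 9 of 12 had a log2 fold change above 0 (median 0.33), and 6 of 10 were called higher and 1 lower with a mean log2 of at least 6 required, while in CD90+/CD133+ over CD90-/CD133- cells 3 of 12 were above 0 (median -0.23) and 1 of 10 was called in each direction with that filter. The filter kept 18737 of 54613 probe sets, so its counts are not to be set beside the shares of the main fit. The probe set 224559_at read 132, 183, 166, 173 and 239 in CD90+/CD133+ cells, 193, 207, 219, 201 and 287 in CD90+/CD133- cells, and 215, 336, 338, 426 and 417 in CD90-/CD133- cells. Replicate 1 was the lowest in each fraction, and the fractions overlapped.

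Between the CD90+ fractions MALAT1 pointed one way. In CD90+/CD133+ over CD90+/CD133- cells the median log2 fold change was -0.50, 11 of 12 were below 0, and 5 of 12 were lower in all 5 pairs. The probe set 224567_x_at read 2128, 2846, 1433, 2981 and 3149 in CD90+/CD133+ cells, 2946, 3496, 3565, 3321 and 5426 in CD90+/CD133- cells, and 2173, 3991, 2114, 3304 and 2773 in CD90-/CD133- cells. Its log2 fold change was -0.60 (SE 0.19, adjusted p = 0.127, limma) in CD90+/CD133+ over CD90+/CD133- cells. At an unadjusted p under 0.05, 0 of the 12 were higher and 7 lower. None passed the adjusted test in this fit over all probe sets, and 0 of 12 did without the replicate block. With a mean log2 of at least 6 required 7 of 10 passed, and 4 of 12 without the probe sets at or under 16 on all arrays. Both settings also called more of all probe sets lower than the main fit, where it was 1020 of 54613. The second setting called 2186 of 40004, and the first kept only 18737. No share of all probe sets is given for the unadjusted p or the 5 pairs. The 12 probe sets share their arrays and transcript, and 11 of them correlated with 224567_x_at at r = 0.25 to 0.86 over the 15 arrays.

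**Figure D4:**
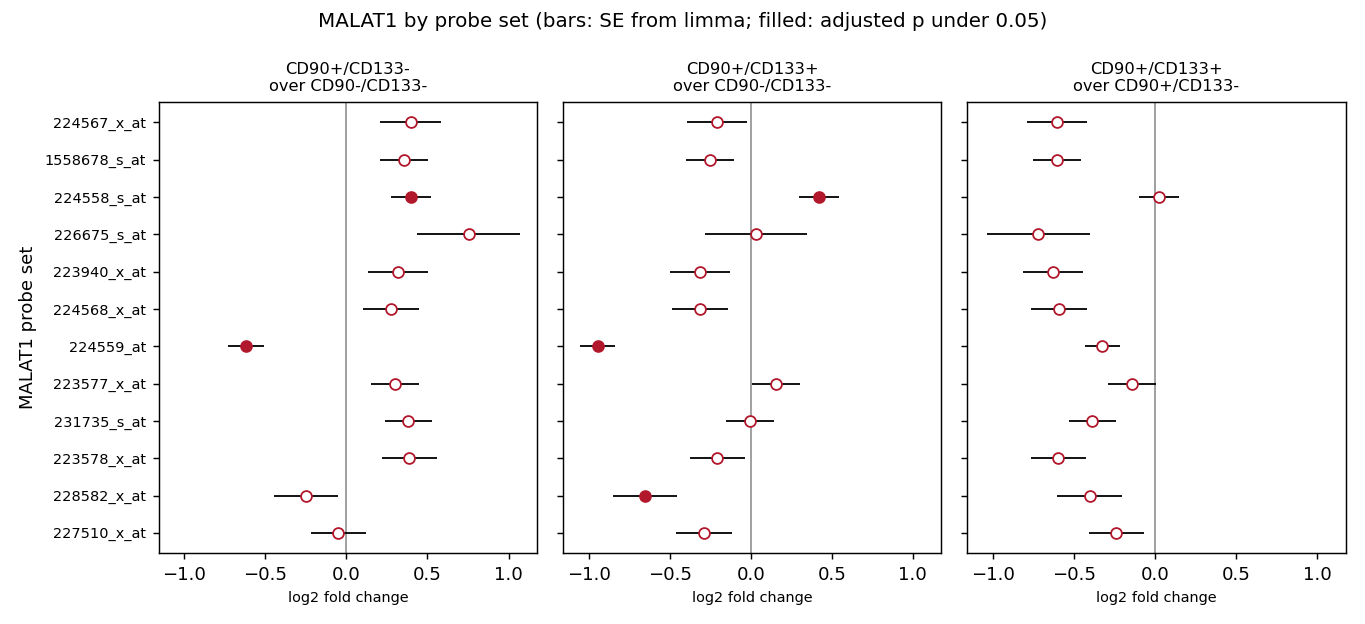
Log2 fold change (horizontal axis) of the 12 MALAT1 probe sets in the 3 comparisons; bars are SE from limma, and filled points have an adjusted p under 0.05. The right panel has 11 of 12 below 0 and none filled, and 224559_at is below 0 in all 3 comparisons.

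The gap between 3' and 5' control probes, a sign of RNA integrity, moved with the same fractions. For ACTB it was 1.70 ± 0.66 in CD90+/CD133+, 2.46 ± 0.56 in CD90+/CD133- cells and 1.84 ± 0.32 in CD90-/CD133- cells on the log2 scale (SD, n = 5 each), and for GAPDH 0.050 ± 0.041, 0.19 ± 0.079 and 0.057 ± 0.032. Its part in the MALAT1 difference was not tested. Of 10 measured nuclear speckle proteins 0 were higher (2 at an unadjusted p under 0.05, limma) and 3 were lower in CD90+/CD133+ cells than in CD90+/CD133- cells. Among all genes 1.71% were higher and 1.75% lower there. The splicing factor SRSF6 was among these 3 (-0.48, adjusted p = 0.0222, limma). In CD90+/CD133- over CD90-/CD133- cells 0 were higher and 2 lower, beside 14% and 16.2% of all genes. The 2 were SRSF7 (-0.38, adjusted p = 0.000429) and SRSF5 (-0.16, adjusted p = 0.0469, limma). Of 16 measured genes around MALAT1 and NEAT1, 2 were higher and 4 lower in CD90+/CD133- cells than in CD90-/CD133- cells, beside 14% and 16.2% of all genes. The largest called change was that of FAM89B with -0.58 (adjusted p = 0.00315, limma).

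NEAT1 was present only in 9 probe sets listed with the microRNA gene MIR612, so by their annotation they name no single gene. In 1 of them, 220983_s_at, 5 of 5 arrays of CD90+/CD133+ cells and 4 of 5 of each other fraction lay at or under 16. Its fold change came from 1 pair. All 9 had a log2 fold change below 0 in CD90+/CD133- over CD90-/CD133- cells and 3 were called lower, and in CD90+/CD133+ over CD90-/CD133- cells all 9 were below 0 and 5 were called lower. Among all probe sets 11.2% and 11.7% were called lower in these comparisons. The probe set 225239_at read 219, 338, 434, 635 and 864 in CD90+/CD133+ cells, 279, 357, 466, 518 and 1226 in CD90+/CD133- cells, and 381, 938, 794, 2187 and 2211 in CD90-/CD133- cells. Within each replicate number the CD90-/CD133- array was the highest, although the fractions overlapped. It fell by 1.26 (adjusted p = 0.00273) and by 1.11 (adjusted p = 0.00499, limma) on the log2 scale. The brightest, 224565_at, had -0.22 (adjusted p = 0.248) and -0.01 (adjusted p = 1), so the probe sets differed widely. Of 11 measured paraspeckle proteins 0 were higher and 7 were lower in CD90+/CD133+ cells than in CD90-/CD133- cells, beside 13.1% and 15.8% of all genes. In CD90+/CD133- cells 0 were higher and 2 lower, beside 14% and 16.2% of all genes. At an unadjusted p under 0.05 (limma), 0 of these proteins were higher in either fraction. Their falls were small, with NUDT21, a pre-mRNA cleavage factor, at -0.64 (adjusted p = 0.00507) and NONO, a core paraspeckle protein, at -0.23 (adjusted p = 0.000118) in CD90+/CD133+ cells.

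PVT1, the neighbour of MYC, was dim in its own probe set (216249_at), with 20.5, 25.3, 21.8, 20.1 and 23.8 in CD90+/CD133+ cells, 19.5, 21.1, 18.9, 16.5 and 17.4 in CD90+/CD133- cells, and 23.4, 24.3, 22.0, 23.6 and 26.1 in CD90-/CD133- cells. The CD90+/CD133- arrays all lay below the CD90-/CD133- arrays, and the CD90+/CD133+ arrays overlapped with both. It fell by 0.36 in CD90+/CD133- cells (adjusted p = 0.00392, limma) and had -0.10 in CD90+/CD133+ cells (adjusted p = 0.389). A brighter probe set listed with PVT1 and MIR1204 (1558290_a_at) averaged 327 in CD90+/CD133+, 268 in CD90+/CD133- cells and 315 in CD90-/CD133- cells and was not called (adjusted p = 0.991 and 0.128 against CD90-/CD133- cells). Of the 4 probe sets with that annotation 1 was lower in each CD90+ fraction, the dim 1562153_a_at, which fell by 0.44 in CD90+/CD133+ cells (adjusted p = 0.00906) and by 0.42 in CD90+/CD133- cells (adjusted p = 0.0107, limma), in 5 of 5 pairs each. Among all probe sets 11.7% and 11.2% were called lower in these fractions. MYC fell by 0.50 in CD90+/CD133+ cells (adjusted p = 0.0184) and had -0.02 in CD90+/CD133- cells (adjusted p = 1).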

How the data were processed

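The authors hybridized labelled RNA of sorted cells to Affymetrix whole-genome arrays and normalized the raw data by a cross-correlation method. Each deposited value is a probe-set intensity on a linear scale, and no array goes below 5. How the probes were summarised, and with which software and genome build, was not given in the sources used here. Array medians were 29.4 to 32.4, and 32.7% to 34.5% of values lay under 16. Of 54675 probe sets 62 controls were set aside, and of the rest 41091 name 1 gene, 1801 several and 11721 none in the annotation used (19775 genes, updated through RefSeq GRCh38.p14, where 41037 probe sets matched).

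Lower intensities were raised to 16 ahead of the log2 step. All 15 arrays and 54613 probe sets were fitted in limma 3.58.1 (R 4.3.3, 2-sided moderated test of lmFit and eBayes, Benjamini-Hochberg, adjusted p under 0.05) with fraction and replicate number as terms. The fit was checked on simulated data. Same-numbered arrays of different fractions correlated in their deviations from fraction means at 0.19 to 0.84 in every pair (18737 probe sets). Different-numbered arrays averaged -0.11, -0.12 and -0.12 in the 3 comparisons and reached 0.17, 0.23 and 0.36, so the numbers were taken to pair the arrays. For replicate 3 the pairing was weak. Its CD90+/CD133+ array had 0.19 with CD90-/CD133- replicate 3 and 0.23 with CD90-/CD133- replicate 5. The label codes are shared by arrays of a number too, but replicates 4 and 5 have the same code. The methods describe 5 biological replicates of the CD90+/CD133- and CD90-/CD133- fractions. The design text speaks of triplicates, and the numbers 1 to 5 were used. For CD90+/CD133+ cells nothing says that the arrays come from separate cultures, so their spread may be only that between arrays. The fit pools the spread of all 15 arrays, so this limit reaches the p-values of all comparisons. No 2 arrays held identical values.

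The genes and lists were chosen with earlier results of these data known. Gene lists use the probe set with the highest mean per gene. Named were to be all probe sets of the 10 genes (of MALAT1 only part are named), up to 4 called genes per list with the largest change in CD90+/CD133- over CD90-/CD133- cells, GAS6, MYC, IRX5 and the HOXC and HOXD genes, and the 3 genes most alike to each member. TFDP1, CDC16, SMARCA4, SRSF6 and the proteins of paraspeckles named for CD90+/CD133+ cells were chosen, and further probe sets of neighbours looked up, after their values were seen. Alternatives were other floors, filters, normalizations, blocks, probe-set summaries and tests, and each array or replicate number left out.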

Additional observations from a re-analysis of the deposited data

Results flagged for a closer look

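In 9 of 61 groups of 5 arrays checked, from 3 genes, the highest or lowest array stood apart from the other 4 by more than Dixon's 95% critical value for its gap, where chance flags about 1 in 20. The groups are not independent, since 12 probe sets belong to MALAT1. Replicate 1 gave 6 of the 9. A further 2 groups with 4 of 5 arrays at the floor have no spread and were left out.

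In UCA1, replicate 1 was the lowest in CD90+/CD133+ cells at 1686 (others 4136 to 5276) and in CD90+/CD133- cells at 1531 (others 4332 to 5259). In GAS5, replicate 1 was the highest in CD90+/CD133+ cells at 39.5 (others 23.2 to 25.1) and in CD90+/CD133- cells at 38.3 (others 25.4 to 28.5). In MALAT1, replicate 1 was the lowest of 223577_x_at in CD90+/CD133+ cells at 144.0 (others 179 to 183) and of 223578_x_at in CD90-/CD133- cells at 51.0 (others 89.8 to 104).

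In MALAT1, replicate 3 was the lowest of 226675_s_at in CD90+/CD133+ cells at 371 (others 990 to 1196). Replicate 5 of the CD90+/CD133- cells was the highest of 226675_s_at at 1871 (others 1314 to 1445) and of 1558678_s_at at 4570 (others 1990 to 2457).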

How the results depend on the processing

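Against CD90-/CD133- cells, UCA1, the brighter CRNDE probe set, GAS5, the fall of 224559_at and HAGLR 228601_at kept their calls in every fit that left out an array or a replicate number. The probe sets tested that were called higher and lower in CD90+/CD133- over CD90-/CD133- cells (5 and 4) numbered 3 and 3 with no replicate block, 3 and 4 with the label code as block, 4 and 2 with the arrays of 2 fractions alone, 3 and 1 at a floor of 64, 9 and 1 with a mean log2 of at least 6, 3 and 2 with 1 probe set per gene or with the mean of probe sets, 2 and 2 by the methods' t-test and 3 and 2 by 1.5-fold of group means without a test. In CD90+/CD133+ over CD90-/CD133- cells (6 and 4) there were 2 lower with 2 fractions, quantile normalization or median centring, 1 lower at a floor of 64, with a mean log2 of at least 6, with 1 probe set per gene or with the mean of probe sets, 3 higher and 2 lower by the methods' t-test, and 2 lower by 1.5-fold. In CD90+/CD133+ over CD90+/CD133- cells (1 and 0, and the same by the methods' t-test) there were 0 higher with 2 fractions, a floor of 64, a mean log2 of at least 6, the mean of probe sets or 1.5-fold, 1 lower at a floor of 1, 7 lower with a mean log2 of at least 6, 5 lower by 1.5-fold, and 2 higher and 4 lower without probe sets at or under 16 on all arrays, a setting added after the data were seen. Such probe sets have no spread, and the prior degrees of freedom of the fit were 0.39 with them and 2.50 without. Of other moves, the cause was not tested. The counts have unlike bases. With 1 probe set per gene or the mean of probe sets 8 genes were tested, and a mean log2 of at least 6 left fewer than 22 probe sets.

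Among all probe sets, the calls higher and lower in CD90+/CD133- over CD90-/CD133- cells (6264 and 6109) numbered 4128 and 3888 with no replicate block, 2924 and 3475 with 1 probe set per gene, 2993 and 3472 with the mean of probe sets, 3598 and 3229 by the methods' t-test and 3191 and 2673 by 1.5-fold. Settings with 1 value per gene tested 19775 genes and not 54613 probe sets. A mean log2 of at least 6 left 18737 probe sets, and leaving out those at the floor 40004. Counts of these settings therefore do not compare as shares with the main fit. For CD90+/CD133+ over CD90-/CD133- cells (5204 and 6404) the same settings gave 3282 and 3846, 2804 and 3359, 2751 and 3493, 3382 and 3815, and 2441 and 3101, and a floor of 64 gave 4024 lower. For CD90+/CD133+ over CD90+/CD133- cells (603 and 1020) there were 88 and 152 with no replicate block, 279 and 459 with the label code, 5 and 14 with 2 fractions, 1030 and 1780 at a floor of 1, 239 and 322 at a floor of 64, 1662 and 1952 with a mean log2 of at least 6, 457 lower with 1 probe set per gene, 674 lower with the mean of probe sets, 5 and 24 by the methods' t-test, 143 and 538 by 1.5-fold, and 1360 and 2186 without probe sets at the floor.

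With an array or replicate number left out, the tested probe sets called were 3 to 5 higher and 3 to 4 lower in CD90+/CD133- over CD90-/CD133- cells, 4 to 6 and 2 to 4 in CD90+/CD133+ over CD90-/CD133- cells, and 0 to 1 and 0 to 1 in CD90+/CD133+ over CD90+/CD133- cells, and all probe sets 4511 to 6140 and 4264 to 5999, 3750 to 5503 and 4608 to 6677, and 0 to 593 and 2 to 956. The first count was 3 without CD90+/CD133- replicate 2 or 3 or CD90-/CD133- replicate 2, 4 or 5, and HAGLR lost its call between the CD90+ fractions without CD90+/CD133+ replicate 2, 3, 4 or 5 or CD90+/CD133- replicate 4 or 5. The small SWINGN difference between the CD90+ fractions lay between -0.10 and 0.27 and changed sign without CD90+/CD133+ replicate 2 (-0.030) or 5 (-0.000797) and without CD90+/CD133- replicate 3 (-0.10) or 4 (-0.025).

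Dim signals limit HAGLR, PVT1, GAS5 and HOTAIR, whose own probe sets lay under 70 on every array.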

Other observations

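Of 63 other long non-coding RNAs measured, 10 were higher and 10 lower in CD90+/CD133- cells than in CD90-/CD133- cells, and 10 were higher and 13 lower in CD90+/CD133+ cells. These counts are near those of all genes, of which 14% and 16.2% were called in CD90+/CD133- cells, and 13.1% and 15.8% in CD90+/CD133+ cells. MIR100HG, the host of a microRNA cluster, averaged 145 in CD90+/CD133+, 160 in CD90+/CD133- cells and 47.2 in CD90-/CD133- cells, and rose by 1.62 (adjusted p = 3.8e-05, limma) and by 1.76 (adjusted p = 2.56e-05) on the log2 scale, in 1 of its 2 probe sets. LINC00665 rose by 1.18 and by 1.37 (adjusted p = 0.000134 and 6.22e-05), and 2 of its 4 probe sets were called. EMX2OS, the transcript opposite the homeobox gene EMX2, fell by 1.66 and by 1.67 (adjusted p = 0.000222 and 0.000204), in both of its probe sets, and HCP5 of the HLA region fell by 1.27 and by 1.12 (adjusted p = 0.000512 and 0.000995).

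The genes whose log2 values ran most like those of a member over the 15 arrays, among 9988 genes with a mean log2 of at least 6, are given as a description, since all points share arrays and fractions. For SWINGN they were CBFB (r = 0.99), KNTC1 (r = 0.99) and BASP1 (r = 0.98), for UCA1 TMT1A, ZBTB5 and CYRIA (0.98, 0.97 and 0.97), for GAS5 SFSWAP, AVPI1 and ZNF26 (0.98, 0.96 and 0.96), and for CRNDE PABIR2, CCNYL1 and CFL2 (0.94, 0.93 and 0.93). For HAGLR they were PLEK2, MPV17 and TMEM98 (0.95, 0.95 and 0.94), for PVT1 VKORC1, TTC5 and TMEM203 (0.93, 0.93 and 0.91), for DANCR G2E3, C1orf53 and B9D2 (0.89, 0.88 and 0.88), and for MALAT1 ZNF585B, SEC23A and ZNF83 (0.88, 0.87 and 0.83).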
